A study of Mus musculus with 4 samples.

Results

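The genes of MHC class II antigen presentation were followed in caecal tissue of wild-type (WT) mice and mice lacking apolipoprotein E (apoE KO). The set was a list of 10 gene symbols, and a gene counted as measured if the array annotation gave a probe set to that symbol alone. This held for 9 of the 10: the alpha and beta chains H2-Aa, H2-Ab1 and H2-Eb1, the peptide-loading chains H2-DMa, H2-DMb1 and H2-DMb2, the chains H2-Oa and H2-Ob of the loading inhibitor, and the coactivator Ciita. Each had 1 such probe set, and they stood among 22180 genes measured in this way. Cd74, the invariant chain, has 1 probe set, which the annotation gives to more than this gene, so the rule left it out and it is not analysed here.

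There were 4 groups with 1 array each: WT, WT with prebiotics, apoE KO, and apoE KO with prebiotics. All mice were C57Bl/6, 21 weeks old, and ate food depleted of n-3 PUFA, the omega-3 family of polyunsaturated fatty acids; prebiotics (Orafti P95) were given at 250 mg per mouse per day for the last 15 days. The RNA on an array was a pool of 6 mice picked for RNA quality, so mice cannot be told apart, no group has a replicate, and any p-value below measures only the spread between 4 pools. The labels of the WT arrays conflict: title, source name and treatment give one diet and the description gives the other. The titles were followed, and values that rest on which WT pool had prebiotics are marked as titled.

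MHC class II molecules hold peptides from engulfed proteins on the surface of B cells, dendritic cells and macrophages, where CD4 T cells read them. Each molecule is an alpha chain paired with a beta chain; Cd74 blocks the groove until the protein is cut away, H2-DM then exchanges the remaining fragment for a peptide, and H2-O, found mainly in B cells, restrains H2-DM. Ciita switches the whole group on by joining factors that sit on a conserved promoter element, the X box (bound by RFX) and the Y box (bound by NF-Y). In the gut, epithelial cells can also make class II molecules under interferon gamma. C57BL/6 mice do not make the I-E alpha chain, so H2-Eb1 RNA in this strain has no partner to form I-E.

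The promoter element is shown because the members are known for being switched on together. RefSeq promoter windows (GRCm38.p6, 250 bases before to 50 after an annotated start) were held for 7 of the 9 measured members. They were searched on both strands for the letters GNAAC of the X box core, followed by GATTGG of the Y box after 20 to 30 other bases; the 2 motifs do not overlap. Of the 7 members 5 held this pair, in 5 of their 8 windows, against 0.651% of all 32851 windows of the same length. The letters were taken from the known element of these genes, so the share is a description and not a test. In the stretches below, written from 5′ to 3′ along the gene, capitals mark the X and Y letters.
H2-Aa (chr17:34287862-34287909, minus strand): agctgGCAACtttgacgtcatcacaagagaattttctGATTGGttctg
H2-Eb1 (chr17:34305771-34305817, plus strand): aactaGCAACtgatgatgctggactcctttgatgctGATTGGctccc
H2-DMb1 (chr17:34153092-34153139, plus strand): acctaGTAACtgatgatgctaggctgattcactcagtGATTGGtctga
H2-Oa (chr17:34092298-34092345, plus strand): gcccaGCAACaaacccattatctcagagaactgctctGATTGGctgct
H2-Ob (chr17:34238813-34238857, plus strand): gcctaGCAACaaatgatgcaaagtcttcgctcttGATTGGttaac
H2-DMb2 (chr17:34145122-34145168, plus strand): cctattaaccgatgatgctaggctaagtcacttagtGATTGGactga
The X letters began between 76 and 94 bases before the start in the 5 genes, and 24 to 27 bases lay between X and Y. H2-DMb2 is printed beside its near-copy H2-DMb1 because it held the Y letters, which 16.1% of all windows hold on either strand, without these X letters. Neither of the 2 windows of H2-DMa held the pair, which says only that these letters are not in those windows.

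**Figure D1:**
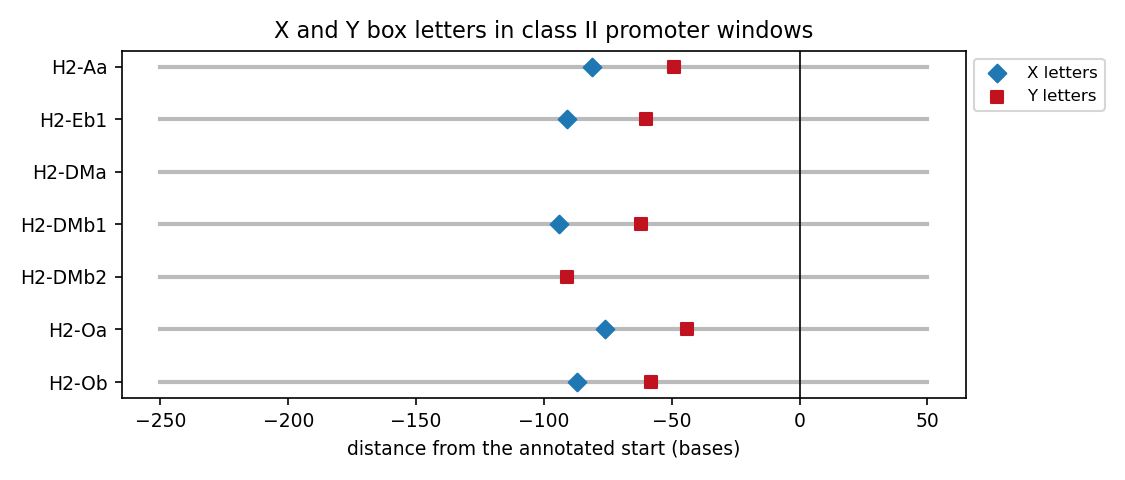
Positions of the X letters (diamonds) and the forward Y letters (squares) in the promoter windows of 7 class II genes, in bases from the annotated start (first window of each gene). In 5 genes X lies 76 to 94 bases before the start with Y downstream of it; H2-DMb2 shows Y alone and H2-DMa neither.

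Values are log2 RMA values, the scale on which the arrays were deposited. The median of all probe sets was 2.92 to 2.93 on the 4 arrays, and a value within 1 log2 unit of it is called near background, where RMA compresses differences. Apoe itself had 3.90 and 4.09 on the WT arrays and 2.83 and 3.13 on the KO arrays. The epithelial adhesion molecule Epcam lay between 10.10 and 10.33 and the smooth muscle myosin Myh11 between 9.38 and 10.09, as genes of gut epithelium and muscle; no marker particular to the caecum was examined. In such bulk tissue, fewer cells of a type and less RNA per cell cannot be told apart.

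The classical chains were well above background on every array and were lowest in apoE KO mice given prebiotics. H2-Ab1, the beta chain of I-A, had 8.22 in WT, 8.31 in WT with prebiotics (as titled), 8.54 in KO and 8.05 in KO with prebiotics. H2-Aa, its alpha chain, had 6.52, 6.53, 6.76 and 6.26 in the same order. For H2-Eb1, the beta chain of I-E, the values were 5.58, 5.53, 5.51 and 5.0. In H2-Aa and H2-Ab1 the KO array without prebiotics was the highest and the KO array with prebiotics the lowest, with the WT arrays between them; in H2-Eb1 the KO array with prebiotics stood below the others, which lay between 5.51 and 5.58.

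The loading and regulatory genes had low values. H2-DMb2, a beta chain of the peptide exchanger, had 4.20 and 4.04 on the WT arrays as titled without and with prebiotics, and 3.77 and 3.42 on the KO arrays without and with. Its order was thus WT above KO, with KO with prebiotics lowest, and both KO values near background. H2-Ob, the beta chain of the inhibitor, had 3.39 and 3.08 in WT and 3.26 and 2.78 in KO. H2-DMa lay between 3.36 and 3.62, H2-DMb1 between 2.61 and 3.06, H2-Oa between 2.71 and 3.31 and Ciita between 3.13 and 3.57. H2-DMa, H2-DMb1, H2-Oa, H2-Ob and Ciita were near background on all 4 arrays, so the sizes of their differences are approximate. H2-DMb1 and H2-DMb2 are near-identical copies, and the gene behind each signal is uncertain.

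**Figure D2:**
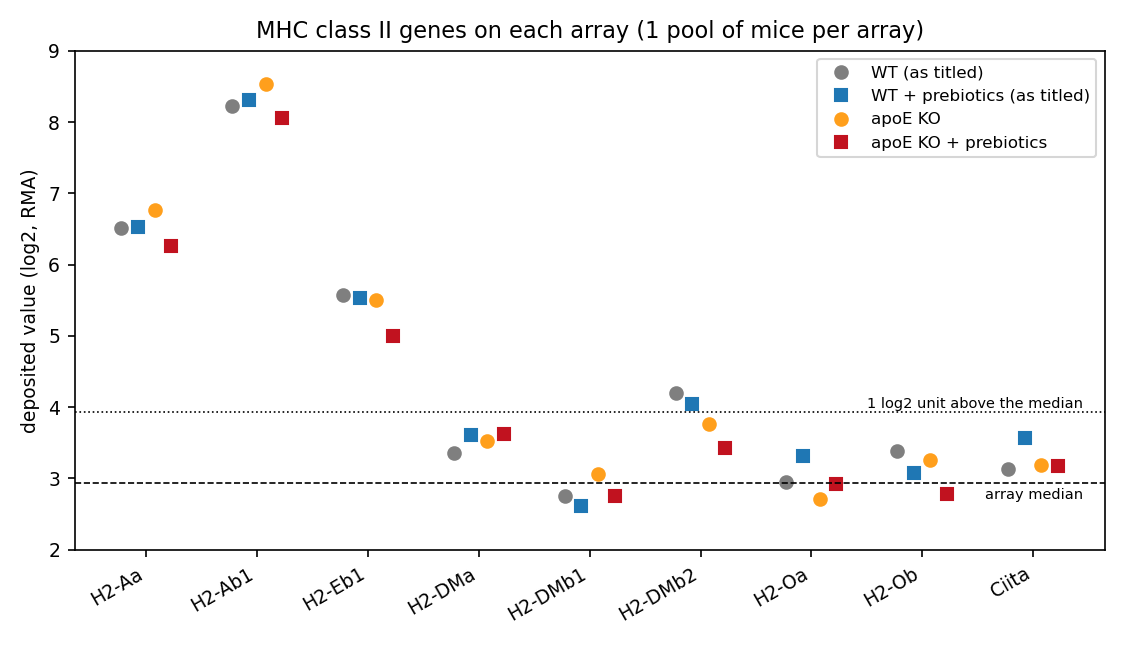
Log2 RMA value of each class II gene (vertical axis) on the 4 arrays, each a pool of mice, drawn with no error bar because no group has a replicate; the dashed line is the array median and the dotted line 1 log2 unit above it. The classical chains H2-Aa, H2-Ab1 and H2-Eb1 lie between 5.0 and 8.54, with KO with prebiotics lowest in each, while the other genes lie near the lines.

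Of the 9 members 5 had their lowest value on the KO array with prebiotics (H2-Aa, H2-Ab1, H2-Eb1, H2-DMb2 and H2-Ob), where 20.6% of the 13083 genes tested had theirs. The same array was the highest for 1 member, H2-DMa, against 30% of all genes. This count does not use the diet of a WT array.

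In apoE KO mice, the classical chains were lower with prebiotics than without by nearly the same amount. The log2 difference was -0.50 for H2-Aa (1.41-fold lower), -0.50 for H2-Ab1 (1.41-fold) and -0.51 for H2-Eb1 (1.42-fold). H2-Ob had -0.48, H2-DMb2 -0.34 and H2-DMb1 -0.30. Ciita, the coactivator of all these genes, had -0.02, and H2-DMa had 0.09. H2-Oa had 0.21 and did not reach the median of single-symbol probe sets on a KO array, which was the condition for entering this comparison.

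Of the 8 members that entered, 7 were below 0, where 43.9% of 12216 genes were, and 5 were lower by at least 0.32 on the log2 scale, the size used throughout to count differences, where 7.17% of genes were. H2-Ob, which is among the 5, and H2-DMb1 met the condition for entry only on the KO array without prebiotics, so the filter fixed their direction. Over all 9 members, 7 were below 0 and 2 above. None of the 8 was higher by at least 0.32 (12.1% of genes) and 0 were 2-fold lower (0.139% of genes). The median was -0.41 over these 8 and -0.34 over all 9, against 0.04 over all genes. With 1 array against 1, nothing replicates these differences.

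In the WT pair as titled, the classical chains were close to equal: the array with prebiotics differed by 0.01 for H2-Aa, 0.10 for H2-Ab1 and -0.04 for H2-Eb1. The largest differences were those of genes near background, Ciita with 0.44, H2-Oa with 0.36 and H2-Ob with -0.31. H2-DMa had 0.25, H2-DMb2 -0.17 and H2-DMb1, which did not reach the median on a WT array, -0.15. Of the 8 members that entered, 0 were lower by at least 0.32 (7.35% of 12223 genes) and 2 higher by at least 0.32 (11% of genes). Of these 2, H2-Oa met the condition for entry only on the array with prebiotics. The median was 0.05, against 0.02 over all genes. If the descriptions are right instead, every sign here is the opposite. The 3 members below 0 were H2-Eb1, H2-DMb2 and H2-Ob, against 47% of genes.

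Subtracting the WT difference as titled from the KO difference gave a value below 0 for 9 of 9 members, where 47.6% of all genes were below 0. It was -0.59 for H2-Ab1, -0.51 for H2-Aa, -0.46 for H2-Eb1 and -0.46 for Ciita; these 4 were below 0 by at least 0.32, as did 11.8% of genes. The remaining 5 lay between -0.18 and -0.15. No residual degree of freedom is left for a test of this difference. With the WT pair exchanged, H2-Aa had -0.49, H2-Ab1 -0.40 and H2-Eb1 -0.55, while Ciita, H2-DMa and H2-Oa turned to 0.42, 0.35 and 0.58. The values for the classical chains thus stayed below 0 under either reading of the labels.

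**Figure D3:**
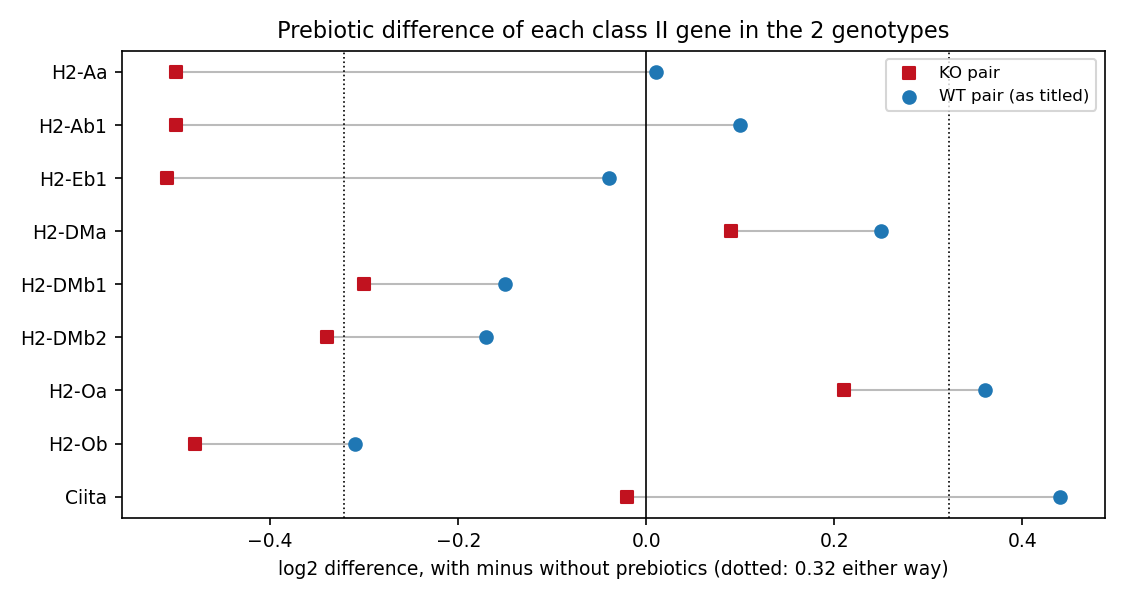
Log2 difference with minus without prebiotics (horizontal axis) for each class II gene in the KO pair (squares) and the WT pair as titled (circles), 1 array against 1 in each; dotted lines mark differences of 0.32 either way. The classical chains lie between -0.51 and -0.50 in KO and between -0.04 and 0.10 in WT.

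Over both genotypes, with WT as titled, limma called 0 of the 9 members for prebiotics; over all 13083 genes it called 0.994% as higher and 0.26% as lower at an adjusted p under 0.05. At an unadjusted p under 0.05 stood 1 member, H2-Ob, and 13.8% of all genes. H2-Ob differed by -0.39 log2 units (SE 0.13, limma adjusted p = 0.224) and was lower in both pairs as titled. With the WT pair exchanged its WT difference was 0.31 and its estimate -0.08. As titled, with prebiotics both arrays lay below both others for H2-DMb1 and H2-Ob (17.4% of genes) and above both others for H2-DMa (25.5% of genes). H2-Eb1 had -0.27 (SE 0.15, limma adjusted p = 0.472), H2-Aa -0.25 (SE 0.14, limma adjusted p = 0.501) and H2-Ab1 -0.20 (SE 0.13, limma adjusted p = 0.568). The error term of this fit is the disagreement between the pairs, which for the classical chains lay between -0.59 and -0.46. Without either KO array the estimate is that of the WT pair, with a median over members of 0.01, and without either WT array that of the KO pair, with -0.34.

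Between genotypes, limma called 0 of the 9 members and 0% of all genes. This fit has no diet term, so its error holds the differences between the 2 arrays of a genotype. The absence of calls thus does not show that the genotypes are equal. H2-DMb2 had a KO mean of 3.59 against 4.12 in WT, a difference of -0.53 (SE 0.16, limma adjusted p = 0.999). It was the 1 member with an unadjusted p under 0.05, as were 3.29% of all genes. For H2-DMb2, H2-Eb1 and H2-Oa, 3 of 9 members, the KO arrays were lower than either WT array, against 14% of genes; 0 members had both KO arrays above, against 16.2%. With 2 arrays against 2, an exact permutation test cannot go below p = 0.333. H2-Eb1 had -0.30 (SE 0.19), a value that was -0.04 without the KO prebiotic array and -0.55 without the other KO array. H2-Aa and H2-Ab1 had -0.02 (SE 0.18) and 0.03 (SE 0.17), and without the KO prebiotic array 0.23 and 0.28. H2-DMb2 ranged from -0.70 without the KO array kept without prebiotics to -0.36 without the KO array given them.

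Taken by diet, the genotype difference of the I-A chains pointed in opposite directions. Without prebiotics (WT as titled), KO had a higher value than WT by 0.33 for H2-Ab1 and 0.23 for H2-Aa, and H2-Eb1 differed by -0.07. With prebiotics the differences were -0.27, -0.27 and -0.53. Below 0 were 3 of 8 members without prebiotics (48.8% of genes) and 7 of 8 with them (45.7% of genes). Over all 9 members these counts were 4 and 7. With prebiotics, H2-Oa and H2-Ob met the condition for entry only on the WT array. Without prebiotics, H2-DMb1 met it only on the KO array. Lower in KO by at least 0.32 were 4 of 8 members with prebiotics (H2-DMb2 at -0.62, H2-Eb1, H2-Oa at -0.39 and Ciita at -0.39; 5.28% of genes) and 1 of 8 without (H2-DMb2 at -0.44; 7.22% of genes). Higher by at least 0.32 was 1 of 8 without prebiotics, H2-Ab1 (8.01% of genes), and 0 of 8 with them (7.77% of genes). These comparisons share arrays with those above. With the WT pair exchanged, the difference with prebiotics was -0.17 for H2-Ab1, -0.26 for H2-Aa and -0.57 for H2-Eb1, and without prebiotics 0.23, 0.23 and -0.02.

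Cell markers also differed between genotypes on the same arrays, with WT as titled. Without prebiotics, 48.8% of all genes were below 0 in KO against WT. Of the markers that entered, 13 of 14 for macrophages were above 0 (median 0.31) and 8 of 9 for B cells below 0 (median -0.27). Leukocyte markers had a median of 0.03. Over all 12 B cell markers, 9 were below 0 (median -0.18). With prebiotics, 45.7% of all genes were below 0. Of the markers that entered, 11 of 11 for B cells (median -0.65) and 8 of 8 for leukocytes (median -0.51) were below 0. Among these, Cd79b, Ms4a1, Pax5, Fcer2a, Cr2, Blk, Fcmr and the leukocyte marker Arhgdib met the condition for entry only on the WT array. The filter thus fixed their direction. The macrophage marker Cd163 met the condition only on the KO array in both comparisons. For macrophages 11 of 13 were above 0 (median 0.11). Over all markers of a list, 12 of 12 for B cells (median -0.57) and 9 of 9 for leukocytes (median -0.36) were below 0. For smooth muscle, 10 of 10 markers were above 0 without prebiotics (median 0.19) and with them (median 0.37). For fibroblasts and matrix these counts were 9 of 9 (median 0.36) and 8 of 9 (median 0.27). Epithelium had medians of -0.10 and 0.02 and endothelium of 0.07 and -0.06. The part of these markers in the genotype differences of the class II genes was not tested.

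B cell and general leukocyte markers were also lower on the KO array with prebiotics. Of 12 B cell markers, 9 entered the KO comparison and 9 were below 0 (43.9% of genes), with a median of -0.62. Cd79b, Ms4a1, Fcer2a, Cr2 and Fcmr met the condition for entry only on the KO array without prebiotics, so the filter fixed their direction. Over all 12 markers, 12 were below 0 and the median was -0.44. Cd79a, a signalling chain of the B cell receptor, had -1.36, its partner Cd79b -1.19, the adaptor Bank1 -0.71 and the tetraspanin Cd37 -0.64. The KO prebiotic array was the lowest of the 4 for 11 of 11 B cell markers tested (20.6% of genes). Summed on the linear scale, the 12 B cell markers gave 159 and 150 on the WT arrays as titled without and with prebiotics, 135 in KO and 89.4 in KO with prebiotics. Most were near background; Cd79a had 4.81, 4.97, 4.52 and 3.16 in that order of arrays.

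The 9 leukocyte markers were all below 0 in the KO pair (43.9% of genes), with a median of -0.36. The phosphatase Ptprc (CD45) had -1.28, Cd53 -0.92, the actin regulator Coro1a -0.68 and Laptm5 -0.38. Of these, Coro1a lay near background on all 4 arrays and Laptm5 on 3. Their linear sum was 279 and 293 on the WT arrays, 281 in KO and 197 in KO with prebiotics; that of the 3 classical chains was 437, 457, 527 and 373. In the WT pair as titled, the medians were -0.13 for B cell and 0.05 for leukocyte markers. The part of these markers in the class II differences was not tested.

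Macrophage markers had their lowest value on the KO prebiotic array for 1 of 14 genes, against 20.6% of all genes. Of the 14, 8 were above and 6 below 0 in the KO pair (median 0.02), and their linear sum was 439, 557, 565 and 597. The receptor kinase Mertk had 0.35, Cd68 0.33, the complement chain C1qc 0.29 and the scavenger receptor Cd163 -0.28. Of these, C1qc and Cd163 lay near background on all 4 arrays. For dendritic cells, 5 of 12 markers entered (median -0.09), and the defining genes Flt3 and Zbtb46 lay near background on all arrays, between 2.77 and 3.0 and between 2.85 and 2.95. The largest differences among those that entered were Cd209a at 0.29, Itgax at 0.18, Cd83 at -0.13 and Ccr7 at -0.12. The linear sum of the dendritic list was 179, 161, 159 and 170. That sum leans on Cd209a (6.39, 6.13, 6.01 and 6.29), the only marker of the list away from background on every array. Among the other lists the KO pair had a median of -0.33 for follicle and M cell tissue (5 of 10 entered), -0.26 for type 3 innate lymphoid cells (4 of 7), -0.20 for endothelium, -0.16 for T cells (5 of 11), -0.16 for smooth muscle, 0.04 for epithelium, 0.15 for fibroblasts and matrix and 0.17 for plasma cells (5 of 7). Over all genes of these 4 incomplete lists the medians were -0.14, -0.13, -0.08 and 0.15. Fcer2a and Cr2, shared with the B cell list, Cxcr5, Il7r, Ccr6, Cd4 and Icos met the condition only on the KO array without prebiotics. Cd3e met it only on the KO array with them. The filter thus fixed the direction of these genes.

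**Figure D4:**
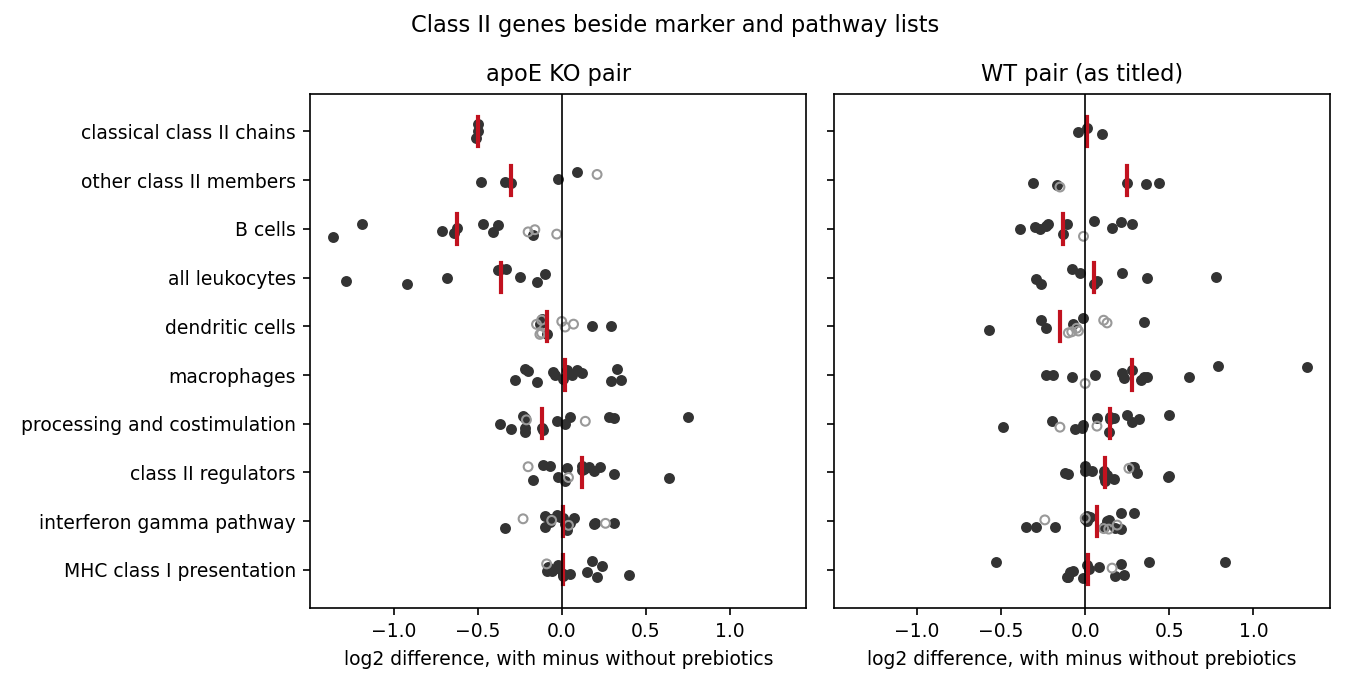
Log2 difference with minus without prebiotics (horizontal axis) for each gene of the class II set and of 8 lists, in the KO pair (left) and the WT pair as titled (right), 1 array against 1; filled points are genes that entered the comparison, open points genes below its expression limit, and red bars the median of the filled points. In KO the classical chains (median -0.50), B cell markers (-0.62, or -0.44 over all 12) and leukocyte markers (-0.36) lie to the left of 0. Macrophage markers (0.02) and class I genes (0.01) are centred near it.

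The partners of class II in processing and costimulation had differences in both directions. Of 16 with a probe set, 14 entered the KO comparison, with 9 below and 5 above 0 and a median of -0.11. Cathepsin S (Ctss), the protease that trims the invariant chain, was higher with prebiotics in both pairs: its values were 8.80 and 9.29 in WT as titled and 8.80 and 9.55 in KO, and it rose by 0.62 (SE 0.09, limma adjusted p = 0.0109), the only gene of the list called. This call rests on the titles. The other large differences in KO were Cd4 at -0.37, Marchf8, a ligase that takes class II off the surface, at 0.31, and the costimulator Cd86 at -0.30, of which Cd4 and Cd86 lay near background. Cd4, Cd86, Cd80 and Lag3 met the condition for entry only on the KO array without prebiotics, so the filter fixed their direction. Over all 16 partners, 10 were below and 6 above 0 (median -0.11).

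Of 16 regulators of class II transcription, 14 entered the KO comparison, with 10 above and 4 below 0 (median 0.12, against 0.04 over all genes). In the WT pair as titled, 13 of 15 were above 0 (median 0.12, against 0.02 over all genes). Of these, Spi1 and Pax5 met the condition for entry only on the array with prebiotics. Over all 16 regulators, 14 were above 0 in that pair (median 0.13). In the KO pair the RFX subunits Rfxap and Rfxank had 0.31 and 0.19 and the lineage factor Irf8 0.23. Prdm1, which represses Ciita in plasma cells, had 0.64, from 3.15 to 3.79, and 0.49 in the WT pair as titled. It was not called (0.56 over both genotypes, limma adjusted p = 0.0943) and lay near background on all 4 arrays. For diet and for genotype limma called 0 of 15 regulators tested.

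Genes of the interferon gamma pathway, which drives Ciita in epithelium, had a KO median of 0.01 over 15 that entered. The largest were Gbp4 at -0.34, Gbp7 at 0.31, the kinase Jak2 at 0.20 and the receptor chain Ifngr1 at 0.19. Gbp4, Cxcl10 and Iigp1 met the condition for entry only on the KO array without prebiotics, so the filter fixed their direction. Of the 15, 10 lay near background on all 4 arrays, Gbp4 and Gbp7 among them, where RMA compresses differences. This median is thus a weak measure of the pathway. MHC class I presentation had a median of 0.01 over 14. H2-K1, a class I heavy chain, was higher by 0.40, the proteasome subunit Psmb10 by 0.24, tapasin (Tapbp) by 0.21 and the light chain B2m by 0.18. On the KO prebiotic array H2-K1 was thus at its highest of the 4 values (8.97), where H2-Aa, H2-Ab1 and H2-Eb1 were at their lowest. The class I list as a whole did not share this. That array was the highest for 2 of its 14 genes (30% of all genes) and the lowest for 4 (20.6%). Limma called 0 genes of both lists for diet and genotype.

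Neighbouring genes of the class II region had their own values. The butyrophilin-like genes Btnl2 and Btnl1, which lie in or beside the class II region and are made by gut epithelium, had 1.05 and 0.61 in the KO pair and 0.40 and 0.15 in the WT pair as titled. Brd2, which lies among the class II genes, had -0.08 and -0.01. H2-Eb2 lay between 2.96 and 3.21 and H2-Ea between 2.76 and 2.97, near background on all arrays.

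The genes whose 4 values were most like the mean profile of H2-Aa, H2-Ab1 and H2-Eb1 were sought among tested genes with a range of at least 0.4. In order they were Anxa8, Snord22, Nckap1l, Maged1, Sting1, Map1s, Kifc2, Dusp6, Snord49a and Traf3ip3, with Pearson's r of 0.9933 or more over only 4 arrays, given as a description. Their KO differences ran from -0.40 for Snord49a and Nckap1l to -0.68 for Traf3ip3, and their WT differences as titled from -0.02 to 0.07. None of the other members was among them.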

How the data were processed

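Caecal RNA was measured on 1 Affymetrix array per group, from 100 ng of pooled RNA. The authors deposited log2 values; the submitters' processing notes name Affymetrix Expression Console and RMA without versions, and the log base was taken from RMA. RMA equalises the arrays and compresses low differences. No genome build for the arrays is given in the sources used here, so coordinates are those of RefSeq promoter windows.

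Of 41345 probe sets, 23521 had 1 gene symbol, 1814 several and 16010 none in the platform annotation; a RefSeq table (GRCm38.p6) held 99.2% of gene identifiers. The probe set with the highest mean stood for a gene. Genes entered a comparison on reaching the median of single-symbol probe sets on at least 1 of its arrays; all 9 measured members entered the fits over 4 arrays.

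Genotype (2 residual degrees of freedom) and prebiotics with genotype as a term (1 residual degree of freedom) were fitted in limma 3.58.1 (R 4.3.3, eBayes with a trend, two-sided), adjusted by Benjamini-Hochberg over 13083 genes and called at 0.05; the fits were tested on simulated data. Pairs of single arrays were described at a fixed fold. Named were all members, up to 4 genes per list with the largest differences among those that entered, called genes of the pathway lists, and the 10 genes most like the classical chains (Cd74, with only a probe set of several symbols, could not enter that profile); Apoe, Epcam, Myh11, Flt3, Zbtb46, H2-Eb2 and H2-Ea are checks. The members, 6 pathway lists and 12 marker lists were chosen with earlier results of these data known. Alternatives were other filters, averaging of probe sets, cyclic loess, median centring, no trend, diet as a block, the WT pair exchanged, and leaving out each array. The number of arrays limits the precision.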

Additional observations from a re-analysis of the deposited data

Results flagged for a closer look

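For 3 members the prebiotic difference had opposite signs in the KO pair and in the WT pair as titled; the difference between the pairs was not tested. H2-Ab1 had -0.50 in KO and 0.10 in WT, a gap of -0.59. H2-Aa had -0.50 and 0.01, a gap of -0.51, with the WT value so close to 0 that its sign carries little. Ciita had -0.02 in KO and 0.44 in WT, a gap of -0.46, with the KO value also close to 0 and all 4 values near background. These flags rest on the titles. With the WT pair exchanged, the 3 members had the same sign in both pairs. Among members that entered both pairs, H2-Eb1, H2-DMa, H2-DMb2 and H2-Ob then had opposite signs instead.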

How the results depend on the processing

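Among the alternative values of single members, 9 with a limma test reversed in sign. A further 29 without a test moved by more than that gene's spread between arrays of a genotype. All of these came with the WT pair exchanged or an array left out. Changes of sign were counted only for values with a test. With the WT pair exchanged, the untested differences of that pair all changed sign, the smallest of them without counting as moved. Each member has 1 probe set, so averaging probe sets could not move its estimate, nor could the filters, the trend or the block, which bear only on the test and on which genes enter. Limma called 0 members in every fit with a test, and the lowest adjusted p of a member was 0.19 for prebiotics, under cyclic loess and median centring, and 0.39 for genotype, with diet as a block. The median difference between pairs, -0.18, was -0.51 with the filter at the 75th percentile, which leaves only the 3 classical chains, and -0.46 with the WT pair exchanged. With the WT pair exchanged, the prebiotic estimates of Ciita, H2-DMa and H2-Oa turned to -0.23, -0.08 and -0.07, and that of H2-Ob went from -0.39 to -0.08. Leaving out each array moved the median for prebiotics, -0.23, between -0.34 and 0.01, and moved the genotype estimate of H2-Ab1 between -0.22 and 0.28, H2-Aa between -0.27 and 0.23, H2-DMa between -0.04 and 0.21, H2-Ob between -0.46 and 0.02 and Ciita between -0.38 and 0.06. A probe set near background gives no firm size for 5 of the members on any array.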
